A study of Mus musculus with 24 samples.

Results

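Mouse oocytes made to overexpress Hdac3 were compared with mouse oocytes treated with the deacetylase inhibitor SAHA, gene by gene, in 4 RNA-sequencing libraries of the 24 samples in the series. The 4 libraries are the deposited count columns that name both groups, 2 libraries each, and 16736 of 55401 listed genes had enough counts to be tested. Every library pooled 5 oocytes. The first group carries the label PSMPs & OE-Hdac3: these oocytes were exposed to PSMPs, an abbreviation the labels do not spell out in a series whose title speaks of microplastics, and they overexpressed Hdac3. The second group carries the label SAHA alone. Whether the SAHA oocytes also met PSMPs, whether the overexpressing oocytes were exposed in the animal or in culture, the dose and duration of SAHA, the means of overexpression, the mouse strain and the age are not given in the sources used here. The comparison therefore sets exposure together with overexpression against inhibition, and those components cannot be told apart. The other RNA libraries came from oocytes exposed in culture (in vitro PSMPs), oocytes exposed in the animal (in vivo PSMPs), cultured controls (con-in vitro) and controls (con), with 2 columns each. The series also lists CUT&Tag samples for acetylated lysine 16 of histone H4, not analysed here.

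Histone deacetylases remove acetyl groups from lysines of histones and other proteins, and histone acetyltransferases add them. Hdac3 is a class I deacetylase that works as the catalytic subunit of the NCoR and SMRT corepressor complexes. SAHA, also called vorinostat, is a hydroxamic acid that blocks the catalytic zinc of class I and class II deacetylases, so it acts on the proteins and not directly on their transcripts. A full-grown mouse oocyte transcribes little, and its messenger RNAs are mostly made earlier, stored, and later cleared during meiotic maturation, so transcript levels in oocytes reflect storage and decay as well as transcription.

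The overexpressing libraries held 9806958 and 7032473 counts, and the SAHA libraries 19223737 and 19446397. Numbers of genes detected were close, with 20957 and 20422 in overexpressing oocytes against 20298 and 20571 in SAHA oocytes. Levels are given as TMM-scaled CPM, counts divided by a library size that is corrected for composition. The TMM factors were 1.57 and 1.57 for the overexpressing libraries against 0.920 and 0.905 for the SAHA libraries, and the 100 most abundant genes took 19.05% and 20.8% of counts in overexpressing oocytes against 36.1% and 35.8% in SAHA oocytes. Libraries of 1 group had a Pearson correlation of 0.985 (overexpressing) and 0.980 (SAHA) over log2(CPM + 1) of the 16736 genes, and correlations between the groups lay from 0.799 to 0.808. The SAHA libraries correlated at 0.944 to 0.978 with the in vitro PSMPs libraries, and the overexpressing libraries at 0.828 to 0.878 with them and at 0.903 and 0.911 with the in vivo PSMPs library. These correlations are across genes, which are not independent replicates. The 10 oocyte markers were above 0 in each of the 4 libraries, with summed levels of 17627 and 20804 CPM in overexpressing oocytes against 41884 and 47901 CPM in SAHA oocytes. Markers of other cells were scarce. Summed over 16 cumulus and granulosa cell markers, levels were 19.1 and 19.3 CPM in overexpressing oocytes against 60.9 and 69.6 CPM in SAHA oocytes, with 2 and 6 (overexpressing) against 6 and 5 (SAHA) markers at 0. Summed over 12 theca, stromal and blood cell markers, they were 13.6 and 16.01 CPM (overexpressing) against 60.1 and 102.9 CPM (SAHA), with 5 and 5 (overexpressing) against 8 and 5 (SAHA) markers at 0. Most of this sum was Pecam1, with 11.0 and 14.1 CPM (overexpressing) against 55.8 and 95.4 CPM (SAHA). Con oocytes had 93.8 and 49.8 CPM of Pecam1. Most of the cumulus and granulosa sum was Cyp19a1, with 10.1 and 11.5 CPM (overexpressing) against 39.7 and 48.3 CPM (SAHA). Pdgfra, Col1a1, Col3a1 and Gja1 were higher in overexpressing oocytes, at no more than 1.43 CPM. Both sums thus rest mainly on few genes. The 8 sperm and early embryo markers summed to 27.8 and 27.6 CPM in overexpressing oocytes against 13.9 and 13.8 CPM in SAHA oocytes, with 2 and 2 (overexpressing) against 2 and 3 (SAHA) at 0. The part of these differences in the results was not tested. The labels do not state that the 2 libraries of a group derive from different animals, so library-to-library spread may be technical. The p-values rest on that spread pooled over all groups in the fit, and not on the groups compared alone. In pooled oocytes, fewer cells and less RNA per cell cannot be told apart.

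Hdac3 itself separated the groups as labelled. Its level was 336 and 228 CPM in overexpressing oocytes, against 7.47 and 7.17 CPM in SAHA oocytes, and the groups did not overlap (log2 fold change 5.27 ± 0.52 (SE), adjusted p = 0.00305, edgeR's quasi-likelihood test with Benjamini-Hochberg adjustment). The mean of the overexpressing libraries was 38.5 times the SAHA mean and 15.5 times the mean of the 9 other libraries in the fit. Among those others, oocytes exposed in culture gave Hdac3 levels of 15.3 and 9.37 CPM, oocytes exposed in the animal 12.7 CPM, cultured controls 26.7 and 23.8 CPM, and con oocytes 23.4 and 37.4 CPM. The SAHA libraries were thus the lowest of the 11 libraries for this gene. The counts do not separate endogenous Hdac3 transcripts from those of an introduced copy. Without overexpressing library 1 the log2 fold change was 4.99 with an adjusted p of 0.0519, which ended the call, and it lay between 5.24 and 5.51 without each of the other 3 libraries.

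The other class I deacetylases did not pass the test, and all had the lower value in overexpressing oocytes with TMM factors, although Hdac8 turned to 0.08 on the log2 scale with library totals. Hdac1 had 6.57 and 2.27 CPM in overexpressing oocytes, against 10.2 and 12.8 CPM in SAHA oocytes (log2 fold change -1.37 ± 1.53 (SE), adjusted p = 0.599). For Hdac2, the values were 51.9 and 46.3 CPM (overexpressing) against 93.9 and 94.2 CPM (SAHA) (log2 fold change -0.94 ± 0.60 (SE), adjusted p = 0.347), and for Hdac8 they were 12.9 and 12.5 CPM (overexpressing) against 20.8 and 20.4 CPM (SAHA) (log2 fold change -0.70 ± 1.04, adjusted p = 0.699). The libraries of these 3 genes did not overlap between the groups, yet 78.2% of all genes tested did not overlap either. With only the 4 libraries fitted, all 3 were called lower (adjusted p = 0.0237, 0.00434 and 0.0476 for Hdac1, Hdac2 and Hdac8). Among class II and IV deacetylases, 6 of 7 had enough counts and none was called by edgeR's test, with 2 at an unadjusted p under 0.05 and 1 called lower by DESeq2. Hdac9 had 1.37 and 1.36 CPM in overexpressing oocytes, against 8.54 and 14.8 CPM in SAHA oocytes (adjusted p = 0.0708), Hdac4 had 22.7 and 16.6 CPM (overexpressing) against 31.7 and 26.8 CPM (SAHA) and Hdac6 had 25.2 and 20.4 CPM (overexpressing) against 2.43 and 9.72 CPM (SAHA). Hdac7, Hdac10 and Hdac11 were below 2.1 CPM in all 4 libraries, and Hdac5, which was not tested, had 3 counts over the overexpressing libraries and 0 over the SAHA libraries. Of 7 sirtuins, the NAD-dependent deacylases that SAHA does not inhibit, Sirt4 of mitochondria fell, with 19.8 and 21.1 CPM in overexpressing oocytes, against 93.1 and 85.02 CPM in SAHA oocytes (log2 fold change -2.12 ± 0.56 (SE), adjusted p = 0.0456). Sirt5, another mitochondrial sirtuin, had 17.96 and 16.01 CPM (overexpressing) against 2.32 and 1.99 CPM (SAHA) (adjusted p = 0.0906), and the nuclear Sirt6 43.2 and 30.4 CPM (overexpressing) against 14.8 and 11.4 CPM (SAHA) (adjusted p = 0.0644). Scaling by library totals ended the Sirt4 call, as did leaving out the filter on low counts.

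**Figure D1:**
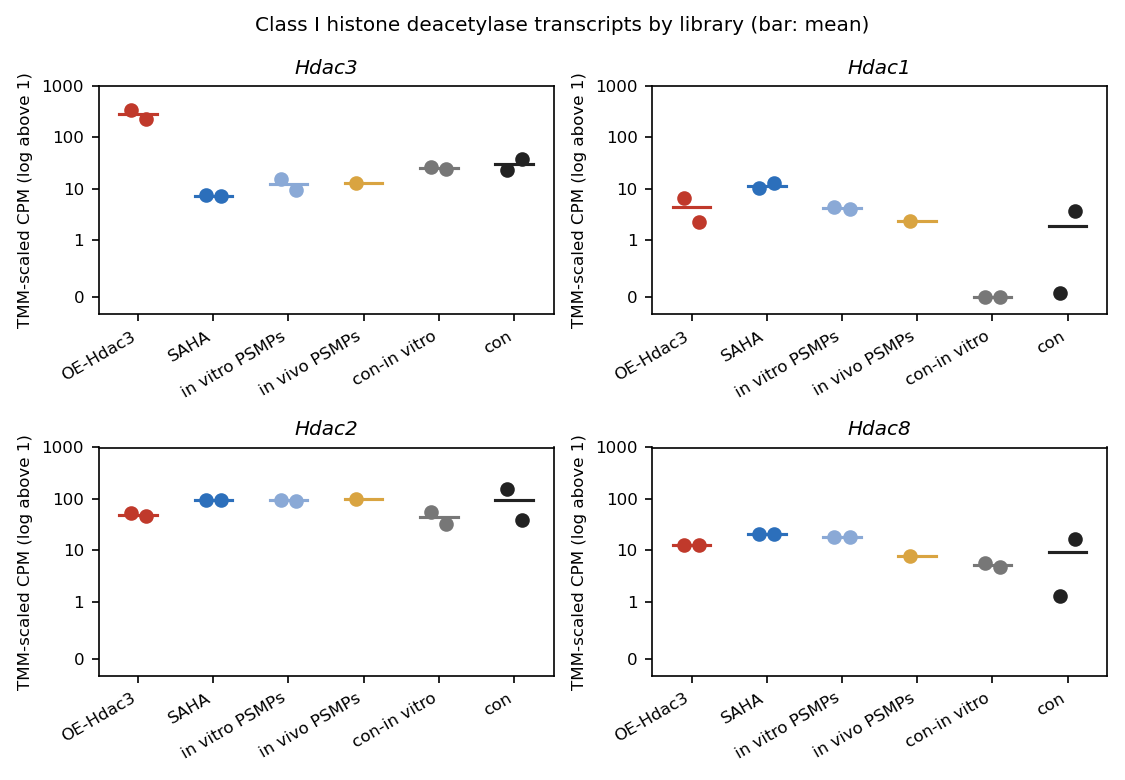
Levels of the 4 class I deacetylase transcripts in 11 libraries, as TMM-scaled CPM on an axis that is logarithmic above 1, with a point per library and a bar at the group mean. Hdac3 lies at 336 and 228 CPM in overexpressing oocytes against 7.47 and 7.17 CPM in SAHA oocytes, while Hdac1, Hdac2 and Hdac8 lie lower in overexpressing than in SAHA oocytes without passing the test (Hdac8 turned with library totals).

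Partners of the deacetylases were called in both directions, where 4.11% of all genes tested were called higher and 5.70% lower. Among 16 tested subunits of the NCoR, SMRT and SIN3 corepressors, in which Hdac3 and Hdac1 or Hdac2 act, Sap30 of the SIN3 complex fell and no member rose. Sap30 had 181 and 174 CPM in overexpressing oocytes, against 748 and 870.0 CPM in SAHA oocytes (log2 fold change -2.19 ± 0.31 (SE), adjusted p = 0.00481). Of 12 tested subunits of NuRD, the complex that joins Hdac1 and Hdac2 to a nucleosome remodeller, 3 rose and 1 fell. Mbd3, its methyl-CpG-binding-domain subunit, had 104 and 86.03 CPM in overexpressing oocytes, against 3.34 and 4.44 CPM in SAHA oocytes (log2 fold change 4.61 ± 0.71 (SE), adjusted p = 0.00593). Chd4, its remodelling ATPase, had 159 and 117 CPM (overexpressing) against 33.6 and 24.3 CPM (SAHA) (2.26), and Gatad2b, a scaffold subunit, 379 and 321 CPM (overexpressing) against 123 and 86.8 CPM (SAHA) (1.74, log2 fold changes). Rbbp7, a histone-binding subunit shared with SIN3 and other complexes, fell, with 1286 and 1271 CPM in overexpressing oocytes, against 8036 and 7554 CPM in SAHA oocytes (log2 fold change -2.61 ± 0.36 (SE), adjusted p = 0.00481). The 1 call among the listed corepressor subunits is near the share of all genes.

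On the acetyltransferase side, the MOF complexes, acetylating histone H4 at lysine 16, had 3 members that fell and none that rose of 12 tested, beside the 5.70% of all genes called lower. Kat8, the catalytic subunit, was not called, with 152 and 172 CPM in overexpressing oocytes, against 47.9 and 85.9 CPM in SAHA oocytes (log2 fold change 1.28 ± 0.95 (SE), adjusted p = 0.422). Msl3, a chromodomain subunit of the MSL complex, fell, with 45.7 and 38.8 CPM in overexpressing oocytes, against 367 and 369 CPM in SAHA oocytes (log2 fold change -3.12 ± 0.37 (SE), adjusted p = 0.00353). Ogt, the O-GlcNAc transferase found in the NSL complex, had 39.5 and 44.01 CPM (overexpressing) against 274 and 379 CPM (SAHA) (log2 fold change -2.97 ± 0.54), and Phf20, a reader subunit of NSL, 412 and 338 CPM (overexpressing) against 1032 and 851 CPM (SAHA) (-1.33 ± 0.34). Msl2, a ubiquitin ligase subunit of MSL, had 32.8 and 34.01 CPM (overexpressing) against 5.38 and 1.93 CPM (SAHA) and did not pass (adjusted p = 0.0577), so members of MSL lay on both sides. Of 22 other acetyltransferase genes, 5 rose and 3 fell, beside 4.11% and 5.70% of all genes. The 5 that rose were Ep400, Tada3, Epc1, Epc2 and Ing2, of which Ep400, Epc1 and Epc2 encode subunits of the NuA4 complex. Ing2 also belongs to the SIN3 deacetylase complex, so its place in this list is not exclusive. Ep400, the NuA4 ATPase, had 390.1 and 329 CPM in overexpressing oocytes, against 54.1 and 64.9 CPM in SAHA oocytes (log2 fold change 2.60 ± 0.36 (SE), adjusted p = 0.00481). The 3 that fell were Hat1, which acetylates newly made histone H4, and the SAGA or ATAC adaptors Tada1 and Tada2a. Hat1 had 37.02 and 34.6 CPM in overexpressing oocytes, against 409.8 and 346 CPM in SAHA oocytes (log2 fold change -3.40 ± 0.52 (SE), adjusted p = 0.00582). Of 20 acetyl-lysine readers, the germ-line bromodomain gene Brdt fell and none rose (148 and 163 CPM (overexpressing) against 1037 and 682 CPM (SAHA), log2 fold change -2.47 ± 0.46), a share near that of all genes. Library totals ended the calls of Phf20 and Tada2a, and leaving out the filter on low counts those of Ing2, Tada2a and Tada3.

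Across all genes, edgeR's quasi-likelihood test called 1642 of 16736 genes at an adjusted p of 0.05, which is 9.81% of those tested. Of these, 688 (4.11%) were higher and 954 (5.70%) lower in overexpressing oocytes, and 4524 genes had an unadjusted p under that level. Calls in the 2 directions differed in level. Genes called higher had a median of 83.5 CPM in overexpressing oocytes against 9.43 CPM in SAHA oocytes, and genes called lower a median of 40.9 CPM (overexpressing) against 218 CPM (SAHA). Together the higher genes held 15.4% and 15.3% of counts in overexpressing oocytes against 1.35% and 1.33% in SAHA oocytes, and the lower genes 17.5% and 18.6% (overexpressing) against 55.3% and 54.8% (SAHA). Lower calls thus lay largely in the abundant part of the transcriptome. When libraries were scaled by their totals, 1480 genes were called higher and 538 lower, and the median log2 fold change of all genes was 0.85 instead of 0.07. Fold changes below are those with TMM factors unless another scaling is named, with no median subtracted. The calls needed both libraries of each group: 3 higher and 1 lower calls were made without overexpressing library 1, 32 and 12 without overexpressing library 2, 61 and 270 without SAHA library 1, and 51 and 215 without SAHA library 2. The lone library was then assumed to vary like those of the other groups. A fit of the 4 libraries alone made 4706 higher and 4576 lower calls, and a fit without both control groups, chosen after seeing the data, 4453 and 3868. The con libraries correlated with each other at 0.856, against 0.985 and 0.980 within the groups compared here.

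**Figure D2:**
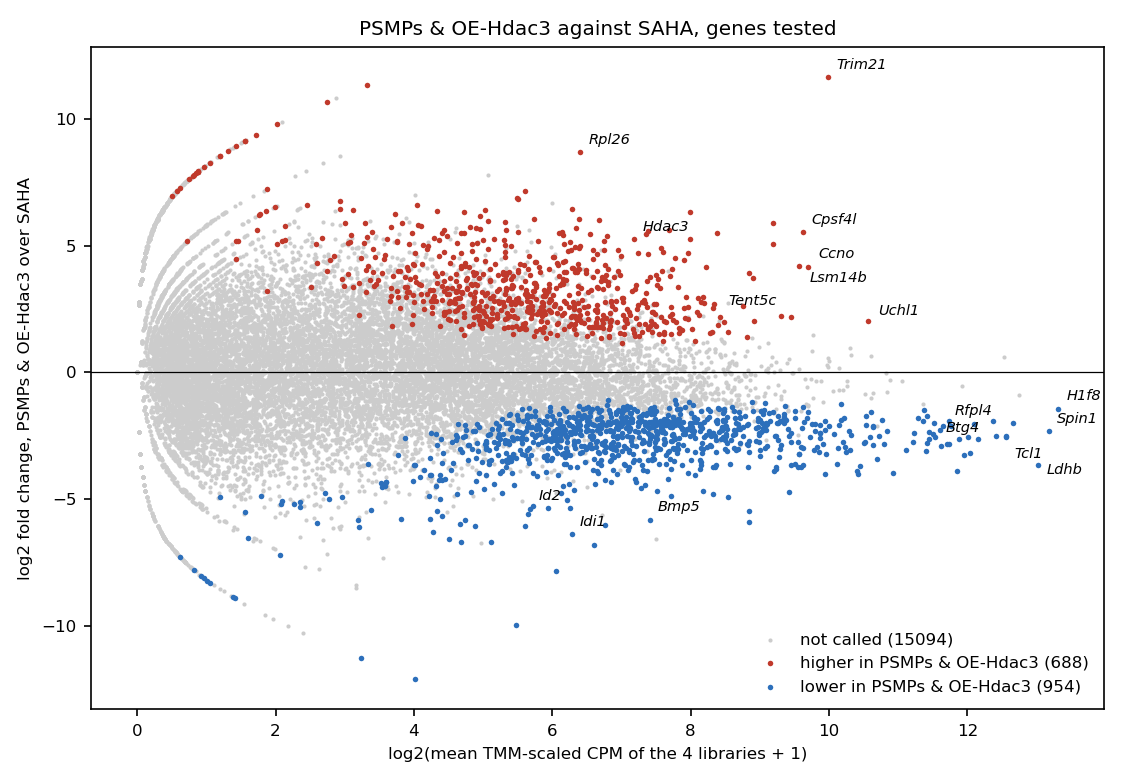
Log2 fold change of overexpressing over SAHA oocytes (vertical axis) against log2 of the mean level in the 4 libraries plus 1 (horizontal axis), 1 point per gene tested, with 688 higher genes in red, 954 lower genes in blue and the rest in grey. The genes at the far right, among them H1f8, Spin1 and Ldhb, mostly lie below 0, and the curved lines at the left are genes at or near 0 counts in 1 group.

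The largest rise of a named gene was Trim21, a ubiquitin ligase that binds antibodies in the cytosol (chr7:102557921-102565486, minus strand, mm10). It had 2398 and 1668 CPM in overexpressing oocytes, against 1.02 and 0.227 CPM in SAHA oocytes (log2 fold change 11.66 ± 1.28 (SE), adjusted p = 0.00397), and stood at 7.70 and 6.22 CPM in the in vitro PSMPs libraries and at or below 0.313 CPM in the other control and exposed libraries. Its log2 fold change was 13.08 without SAHA library 1 and 10.95 without SAHA library 2. The counts do not separate endogenous Trim21 transcripts from those of an introduced copy, and whether these oocytes received one is not given in the sources used here. Zswim8, the substrate receptor of a ubiquitin ligase that degrades Argonaute proteins bound to certain target RNAs, had 19.7 and 16.3 CPM in overexpressing oocytes and no count in SAHA oocytes, and was thus at least 211-fold higher, taking 3 counts over the SAHA group as the floor. Inafm1, with 11.3 and 11.5 CPM in overexpressing oocytes and no count in SAHA oocytes, was at least 133-fold higher by the same floor. Both genes were called (adjusted p = 0.0335 and 0.0342). In all, 22 genes called higher had no count in SAHA oocytes, and 10 called lower had none in overexpressing oocytes.

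The other large rises were in genes of different roles. Srf, the serum response factor that controls actin and immediate early genes, had 25.4 and 35.9 CPM in overexpressing oocytes, against 0.396 and 0.227 CPM in SAHA oocytes (log2 fold change 6.59 ± 0.93 (SE), adjusted p = 0.00481). Cpsf4, a subunit of the factor that cuts pre-messenger RNAs at the polyadenylation signal, had 75.4 and 100.5 CPM (overexpressing) against 0.849 and 0.682 CPM (SAHA) (log2 fold change 6.83 ± 1.38), and its oocyte-abundant paralog Cpsf4l had 1565 and 1520.0 CPM (overexpressing) against 28.97 and 37.5 CPM (SAHA) (5.54 ± 1.41). Without the filter on low counts Cpsf4l was not called (adjusted p = 0.167). Kremen1, a receptor for the Wnt antagonist Dkk1, had 81.7 and 92.5 CPM (overexpressing) against 1.02 and 0.455 CPM (SAHA) (6.87 ± 0.97). These genes were near or below 1 CPM in SAHA oocytes, apart from Cpsf4l. Their libraries did not overlap, which the rule for the largest rises required and which held for 78.2% of all genes tested. Mib2, a ubiquitin ligase of Notch signalling, had 12.5 and 13.8 CPM (overexpressing) against 0.170 and 0.0569 CPM (SAHA), Def6, a guanine nucleotide exchange factor, 11.8 and 14.6 CPM (overexpressing) against 0.170 and 0.114 CPM (SAHA), and Slc25a28, a mitochondrial iron carrier, 16.3 and 14 CPM (overexpressing) against 0.170 and 0.171 CPM (SAHA). Their SAHA values rest on 4 to 6 counts over the group, so the size of these folds is loosely set. Without SAHA library 1 the log2 fold changes of Kremen1 and Mib2 were 7.56 and 7.69, against 6.87 and 6.77 with it. Cultured controls had 35.9 and 54.9 CPM of Srf, 68.5 and 125 CPM of Cpsf4 and 51.6 and 117 CPM of Kremen1. The overexpressing levels of Srf, Cpsf4 and Kremen1 thus lay within the range of the other groups. Cpsf4l, Mib2, Def6 and Slc25a28 were highest in the overexpressing libraries.

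The 6 most abundant genes that rose were Trim21, Uchl1, Ccno, Lsm14b, Cpsf4l and Tent5c. Uchl1, a deubiquitinase abundant in oocytes, had 2128 and 2711 CPM in overexpressing oocytes, against 515 and 671 CPM in SAHA oocytes (log2 fold change 2.03 ± 0.48 (SE), adjusted p = 0.0326). Ccno, which encodes a cyclin O known from multiciliated cells, had 1463 and 1669 CPM (overexpressing) against 55.9 and 118 CPM (SAHA) (log2 fold change 4.17 ± 0.71, and 4.81 without SAHA library 2). Lsm14b, an RNA-binding protein of stored maternal messenger RNPs, had 1635 and 1249.8 CPM (overexpressing) against 89 and 66.99 CPM (SAHA) (4.21 ± 0.51). Tent5c, a cytoplasmic poly(A) polymerase, had 1024 and 1263 CPM (overexpressing) against 227 and 281 CPM (SAHA) (2.17 ± 0.58). Lsm14b varied widely over the study, from 61.7 and 131 CPM after exposure in culture, through 1039 CPM after exposure in the animal, to 21239.9 and 45012 CPM in cultured controls, so its overexpressing level lay within the range of the other groups.

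The largest fall of a named gene was Idi1, the isomerase that makes dimethylallyl diphosphate in the cholesterol pathway (chr13:8885501-8892451, plus strand, mm10). It had 1.69 and 1.91 CPM in overexpressing oocytes, against 164 and 139.5 CPM in SAHA oocytes (log2 fold change -6.39 ± 0.93 (SE), adjusted p = 0.00535). The in vitro PSMPs libraries, at 57.6 and 136 CPM, sat with or toward the SAHA libraries, and the remaining libraries lay between 1.70 and 9.59 CPM, so SAHA and in vitro PSMPs oocytes were the high ones. Bmp5, a ligand of the BMP family, had 5.27 and 6.55 CPM in overexpressing oocytes, against 317 and 347 CPM in SAHA oocytes (log2 fold change -5.81 ± 0.82 (SE), adjusted p = 0.00491), with 182 and 284 CPM in in vitro PSMPs and at most 22.5 CPM elsewhere. Id2, an inhibitor of basic helix-loop-helix transcription factors that many cell types induce on deacetylase inhibition, had 1.43 and 3.27 CPM in overexpressing oocytes, against 117 and 79.1 CPM in SAHA oocytes (log2 fold change -5.38 ± 0.93 (SE), adjusted p = 0.0150). Id2 stood at 9.81 and 23.3 CPM in in vitro PSMPs and at or below 0.567 CPM in the remaining libraries, so that the SAHA libraries were the highest of the 11 for this gene. Without overexpressing library 2 the log2 fold change of Id2 was -6.10.

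The 9 other genes among the large falls had different roles. Sycp3, a component of the synaptonemal complex of meiotic prophase, had 4.36 and 2.91 CPM in overexpressing oocytes, against 183 and 112 CPM in SAHA oocytes (log2 fold change -5.33 ± 1.07 (SE), adjusted p = 0.0163), and Mei4, needed to start meiotic DNA breaks, had 0.130 and 0.818 CPM (overexpressing) against 25.01 and 26.3 CPM (SAHA) (log2 fold change -5.77 ± 1.28). The Mei4 value rests on 11 counts over the overexpressing libraries, and it was -4.93 without overexpressing library 1 and -7.56 without overexpressing library 2. Pnpla3, a lipid droplet lipase, had 3.19 and 2.64 CPM (overexpressing) against 93.7 and 143 CPM (SAHA) (-5.34 ± 0.81), and Septin12, a septin known from sperm, 0.521 and 1.00 CPM (overexpressing) against 35.4 and 60.3 CPM (SAHA) (-5.98 ± 1.07). The relaxin-family hormone gene Rln3 had 0.455 and 0.818 CPM (overexpressing) against 40 and 29.9 CPM (SAHA) (-5.77 ± 1.01), and H2-Aa, which encodes an MHC class II chain, 0.455 and 1.09 CPM (overexpressing) against 41.8 and 37.5 CPM (SAHA) (-5.68 ± 0.97, and -6.43 without overexpressing library 2). All of these were at most 4.36 CPM in overexpressing oocytes. The zinc-finger family genes Zfp982, Rex2 and Zfp600 fell as well. Zfp982 had 2.86 and 3.73 CPM (overexpressing) against 229 and 197 CPM (SAHA) (-6.01 ± 1.35), Rex2 0.586 and 1.09 CPM (overexpressing) against 42.5 and 32.5 CPM (SAHA) (-5.48 ± 0.97) and Zfp600 0.130 and 0.728 CPM (overexpressing) against 23.3 and 13.3 CPM (SAHA) (-5.42 ± 1.43). Reads of such repeated family members can be shared between copies, so their values are uncertain, and the Zfp600 call ended with library totals (log2 fold change -4.66, adjusted p = 0.0606). Without overexpressing library 1 the Zfp600 value was -4.62, and without overexpressing library 2 it was -7.07.

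The 6 most abundant genes that fell were H1f8, Spin1, Ldhb, Rfpl4, Tcl1 and Btg4. H1f8, the oocyte linker histone, had 5181 and 5819 CPM in overexpressing oocytes, against 14023 and 15602 CPM in SAHA oocytes (log2 fold change -1.43 ± 0.26 (SE), adjusted p = 0.0102), and library totals ended that call (log2 fold change -0.65, adjusted p = 0.0586). Spin1, a histone methyl-lysine reader of the oocyte, had 3098 and 3069.7 CPM (overexpressing) against 14826 and 16112 CPM (SAHA) (log2 fold change -2.33 ± 0.33). Ldhb, the lactate dehydrogenase B subunit, had 1182 and 1255 CPM (overexpressing) against 14357 and 16628 CPM (SAHA) (-3.67 ± 0.30) and so fell further than the other 5 of this set. Tcl1, a coactivator of Akt kinases, had 1576 and 1961 CPM (overexpressing) against 9588 and 11023 CPM (SAHA) (-2.54 ± 0.33), and Btg4, the adaptor that brings the CCR4-NOT deadenylase to maternal messenger RNAs, 1713 and 1550.2 CPM (overexpressing) against 10232 and 8239 CPM (SAHA) (-2.50 ± 0.39). Rfpl4, an oocyte RING-finger gene, had 2355 and 2835 CPM (overexpressing) against 12071 and 8684 CPM (SAHA) (-2.0 ± 0.46), a call that library totals also ended (log2 fold change -1.22, adjusted p = 0.0677). Over the other groups, Ldhb was high after exposure in culture (10057 and 12367 CPM) and lower after exposure in the animal (2295 CPM), in cultured controls (649 and 600.0 CPM) and in con oocytes (1999.8 and 2709 CPM).

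**Figure D3:**
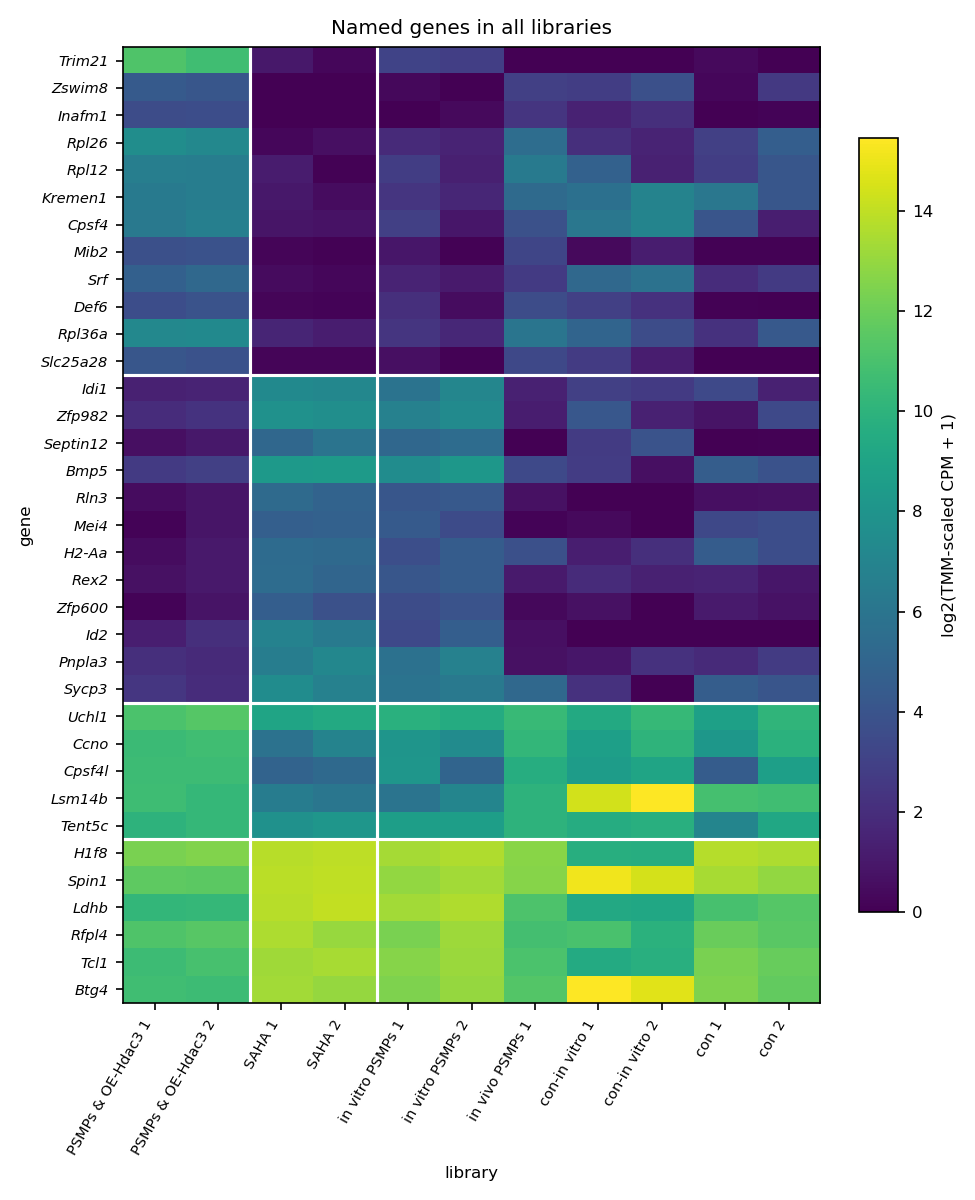
Log2(TMM-scaled CPM + 1) of the named genes in 11 libraries, with rows ordered as largest rises, largest falls, most abundant rises and most abundant falls, and white lines between those sets and beside the overexpressing and SAHA columns. For the falls the in vitro PSMPs columns resemble the SAHA columns, as for Bmp5, at 317 and 347 CPM in the SAHA columns and 182 and 284 CPM in the in vitro PSMPs columns.

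The same side was taken by the in vitro PSMPs libraries for most called genes. Their mean lay nearer, on the log2 scale, to the SAHA mean for 92.3% of the 688 higher genes and for 97.9% of the 954 lower genes. It lay between both means for 576 higher and 909 lower genes, below both for 112 higher genes and above both for 45 lower genes. The in vivo PSMPs library was nearer to the overexpressing mean for 83.4% of the higher and 63.2% of the lower genes. The con-in vitro mean was nearer to it for 79.1% and 77.1%, and the con mean for 63.1% of the higher but 34.1% of the lower genes. These shares describe genes chosen by this contrast and carry no test.

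Genes for cytosolic ribosomal proteins, the protein parts of the ribosome, had the highest median change of the 40 gene lists. Of 76 tested, 41 rose and none fell, where 4.11% of all genes rose, and 75 of 76 had a fold change above 0. Their median log2 fold change was 3.49, beside 0.07 for all genes, and it was 4.26 beside 0.85 with library totals. Their share of all counts was 1.82% and 1.89% in overexpressing oocytes against 0.155% and 0.128% in SAHA oocytes. Exposure in culture gave 0.268% and 0.167%, exposure in the animal 1.15%, cultured controls 0.143% and 0.0974%, and con oocytes 0.234% and 0.600%, so the overexpressing libraries were the highest of the 11. The number called was 1 without overexpressing library 1, 2 without overexpressing library 2, 5 without SAHA library 1 and 3 without SAHA library 2. Processed pseudogenes of these genes rose too, with 11 of 90 tested called higher and none lower and a median log2 fold change of 2.95, so reads may be split between copies and single members are uncertain.

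Large-subunit genes included the largest of these rises. Rpl26 had 187 and 147 CPM in overexpressing oocytes, against 0.226 and 0.569 CPM in SAHA oocytes (log2 fold change 8.69 ± 0.95 (SE), adjusted p = 0.00333). Rpl12 had 96.2 and 92.5 CPM (overexpressing) against 1.24 and 0.0569 CPM (SAHA) (log2 fold change 7.16 ± 1.71) and Rpl36a 145 and 159.9 CPM (overexpressing) against 2.09 and 1.36 CPM (SAHA) (6.46 ± 0.99). Each was below 2.1 CPM in both SAHA libraries. The low SAHA values leave the folds loosely set. The log2 fold change of Rpl12 was 10.53 without SAHA library 1 and 6.24 without SAHA library 2, and that of Rpl26 was 9.48 without SAHA library 2. Among small-subunit genes, Rps12 had 167 and 231 CPM (overexpressing) against 3.45 and 2.62 CPM (SAHA) (6.03 ± 0.57) and Rps16 189.6 and 185 CPM (overexpressing) against 15.8 and 7.34 CPM (SAHA) (4.01 ± 0.52, and 4.67 without SAHA library 1). The stalk protein genes Rplp0 and Rplp1 changed less, by 2.50 ± 0.45 and 2.96 ± 0.48 on the log2 scale, and both passed. Not all members moved alike. Rpl10 had 119.6 and 115 CPM (overexpressing) against 109 and 77.5 CPM (SAHA) (adjusted p = 0.657).

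**Figure D4:**
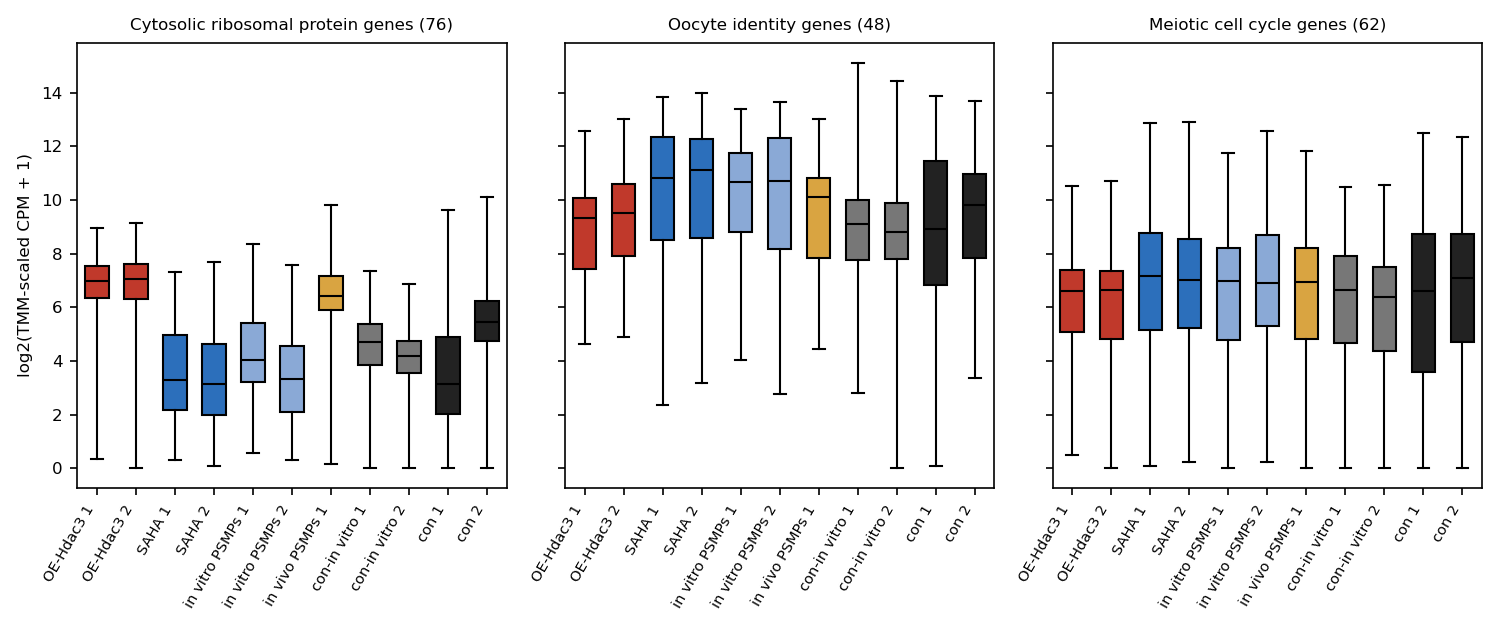
Log2(TMM-scaled CPM + 1) of 76 cytosolic ribosomal protein genes, 48 oocyte identity genes and 62 meiotic cell cycle genes in 11 libraries, with boxes from the lower to the upper quartile, a line at the median and whiskers to the lowest and highest gene. Ribosomal protein genes are high in the overexpressing and in vivo PSMPs libraries, and oocyte identity genes are lower in the overexpressing than in the SAHA libraries.

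Messenger RNAs of ribosomal proteins are known to begin with a run of pyrimidines that lets growth signals control their translation and storage. The sequence around the annotated start is therefore shown for the 3 ribosomal protein genes among the largest rises and, beside them, for 3 of the largest falls, with 60 bases before the start and 30 after it. Sequences are those of RefSeq on GRCm38.p6, in the direction of transcription, and capitals mark the longest run that begins with C and has at least 7 pyrimidines (C or T) in all, wherever in the window it lies.

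Rpl26 (chr11:68901506-68901595, plus strand): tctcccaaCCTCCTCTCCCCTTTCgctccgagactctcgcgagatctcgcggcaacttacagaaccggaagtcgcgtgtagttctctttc
Rpl12 (chr2:32961652-32961741, plus strand): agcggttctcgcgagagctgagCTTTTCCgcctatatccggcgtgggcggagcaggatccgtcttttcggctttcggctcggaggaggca
Rpl36a (chrX:134585594-134585683, plus strand): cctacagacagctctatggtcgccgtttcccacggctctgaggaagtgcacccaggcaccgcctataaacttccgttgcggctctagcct
Idi1 (chr13:8885546-8885635, plus strand): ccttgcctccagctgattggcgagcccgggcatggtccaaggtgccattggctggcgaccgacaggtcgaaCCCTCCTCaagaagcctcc
Bmp5 (chr9:75775305-75775394, plus strand): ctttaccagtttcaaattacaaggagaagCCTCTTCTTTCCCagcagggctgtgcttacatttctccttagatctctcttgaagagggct
Id2 (chr12:25096063-25096152, minus strand): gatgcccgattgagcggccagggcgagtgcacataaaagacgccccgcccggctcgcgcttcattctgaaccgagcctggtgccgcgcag

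Read in the direction of transcription, such a run was found in Rpl26, Rpl12, Idi1 and Bmp5, and not in Rpl36a or Id2. With the annotated start as base 1, it began at base -52 in Rpl26, -38 in Rpl12 and -31 in Bmp5, which is before the start and outside the annotated messenger RNA, and at base 12 in Idi1. In these 4 genes the longest run thus did not lie at the annotated start, and the counts below cover the whole window and not the first bases of the messenger RNA. RefSeq promoters were matched by symbol for 11519 of 16733 distinct symbols tested. In the 90-base window the run occurred in 22 of 29 matched ribosomal protein genes that rose (75.9%), and in 40.9% of 491 other genes that rose, 33.8% of 710 that fell and 37.1% of all 11519. A GC box (GGGCGG, either strand, within 250 bases before the start) was found in 31.03% of those ribosomal protein genes, 67.8% of the other genes that rose, 59.4% of genes that fell and 54.3% of all matched genes. A CCAAT box, searched likewise, was found in 27.6%, 36.7%, 39.6% and 36.7% in the same order. These motifs were chosen after the calls were seen. Ribosomal protein genes that were not called were not counted apart, so whether the run goes with the rise or with the family was not tested. A match describes the letters of the window and not a bound site.

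The rest of the translation machinery was called in both directions. Eef1a1, the elongation factor that brings aminoacyl-tRNAs to the ribosome and whose messenger RNA also starts with pyrimidines, rose, with 1206 and 1084 CPM in overexpressing oocytes, against 16.7 and 21.8 CPM in SAHA oocytes (log2 fold change 5.89 ± 1.09 (SE), adjusted p = 0.0120). Its exchange factor Eef1b2 had 210.2 and 189.7 CPM (overexpressing) against 36.4 and 19.7 CPM (SAHA) (log2 fold change 2.83 ± 0.59), while Tpt1 had 227 and 193 CPM (overexpressing) against 359 and 294 CPM (SAHA) and Npm1, the nucleolar chaperone, 577 and 604 CPM (overexpressing) against 692 and 486 CPM (SAHA), neither called (adjusted p = 0.268 and 1.00). These 4 were chosen after their values were seen, and most other partners looked at lay above 0. Rack1 rose (log2 fold change 1.60 ± 0.40). Eef1d, Eef1g, Pabpc1, Naca and Eef2 were not called, with log2 fold changes of 3.51, 3.22, 2.47, 2.19 and 1.86, nor was Eif3e, with -0.29. Of 44 tested initiation genes, 8 rose and 6 fell, beside 4.11% and 5.70% of all genes. The 8 were Eif4b, Eif4e1b, Eif4h, Eif3d, Eif3f, Eif3h, Eif2b2 and Eif4g1, and the 6 were Eif2b1, Eif1, Eif5a, Eif5, Eif4e and Eif4a2. Eif4b, a cofactor of the eIF4A helicase, had 167 and 165 CPM in overexpressing oocytes, against 11.6 and 10.4 CPM in SAHA oocytes (log2 fold change 3.92 ± 0.52 (SE), adjusted p = 0.00459), and Eif4h, a related cofactor, had 345 and 306 CPM (overexpressing) against 7.47 and 6.03 CPM (SAHA) (5.59 ± 1.01). Eif4e1b, the oocyte form of the cap-binding protein, had 90.6 and 167 CPM (overexpressing) against 12.7 and 10.5 CPM (SAHA) (3.47 ± 0.52), whereas the general form Eif4e had 137 and 173 CPM (overexpressing) against 339 and 354 CPM (SAHA) (-1.16 ± 0.28). Library totals ended the Eif4e call (log2 fold change -0.38), and those of Eif4a2, Eif5 and Eif5a. Leaving out the filter on low counts ended the calls of Eif4e, Eif2b2 and Eif4g1. Eif2b1, a subunit of the exchange factor of eIF2, fell, with 305 and 295 CPM (overexpressing) against 1435 and 1522 CPM (SAHA) (-2.30 ± 0.32), while its partner Eif2b2 rose, with 52.8 and 46.6 CPM (overexpressing) against 6.90 and 7.11 CPM (SAHA) (2.82 ± 0.70). Without single libraries, at most 1 of these 44 genes was called in either direction.

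Of 72 mitochondrial ribosomal protein genes, 3 rose and none fell, with a median log2 fold change of 1.17. They were Mrps35, Mrpl17 and Mrpl51, and Mrpl17 had 101.6 and 100.9 CPM in overexpressing oocytes, against 5.32 and 4.55 CPM in SAHA oocytes (log2 fold change 4.36 ± 1.08 (SE), adjusted p = 0.0371). That share is close to the 4.11% of all genes that rose. Of 43 splicing genes, 6 rose and 5 fell, beside 4.11% and 5.70% of all genes. The 6 that rose, Prpf8, Prpf19, Sf3b3, Sf3a1, U2af2 and Prpf31, encode spliceosome proteins, and the 5 that fell, Hnrnpk, Sf3b4, Hnrnpc, Snrpd3 and Srsf7, include the RNA-binding hnRNP genes. Prpf8, the core protein of the catalytic centre, had 154 and 140.2 CPM in overexpressing oocytes, against 23.3 and 10.6 CPM in SAHA oocytes (log2 fold change 3.12 ± 0.54 (SE), adjusted p = 0.00923), and Hnrnpk had 182 and 138 CPM (overexpressing) against 644 and 766 CPM (SAHA) (log2 fold change -2.14 ± 0.34 (SE), adjusted p = 0.00623). Without SAHA library 1 the Prpf8 value was 3.80. Library totals ended the calls of Sf3b4, Hnrnpc, Snrpd3 and Srsf7, and leaving out the filter on low counts those of Prpf31 and Sf3a1.

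Genes that define the oocyte were called mostly lower. Of 48 tested, 23 fell and 1 rose, where 5.70% of all genes fell, and the median log2 fold change was -1.46 (-0.68 with library totals, which called 13 lower and 5 higher). The zona pellucida genes Zp1, Zp2 and Zp3, which encode the egg coat, all fell. Zp2 had 671 and 797 CPM in overexpressing oocytes, against 5392 and 5664 CPM in SAHA oocytes (log2 fold change -2.91 ± 0.65 (SE), adjusted p = 0.0249), Zp1 had 435 and 443 CPM (overexpressing) against 2850.4 and 3395 CPM (SAHA) (-2.83 ± 0.62) and Zp3 912 and 923 CPM (overexpressing) against 4216 and 5096 CPM (SAHA) (-2.34 ± 0.63). Library totals ended all 3 calls, with log2 fold changes of -2.05 for Zp1, -2.13 for Zp2 and -1.56 for Zp3. Bmp15, an oocyte growth factor, had 932 and 1178 CPM (overexpressing) against 6099 and 6888 CPM (SAHA) (log2 fold change -2.62 ± 0.32 (SE), adjusted p = 0.00367), whereas its partner Gdf9 was not called (log2 fold change 0.63, adjusted p = 0.254). Nlrp5, a component of the subcortical maternal complex, had 417 and 343 CPM (overexpressing) against 1853 and 3269.7 CPM (SAHA) (-2.75 ± 0.42), and its partners Ooep, Tle6 and Khdc3 were not called, with log2 fold changes of 1.46, 0.46 and 0.41. The germ-line helicase Ddx4 had 44.2 and 38.9 CPM (overexpressing) against 387 and 343 CPM (SAHA) (-3.14 ± 0.41). Bcl2l10, an oocyte member of the Bcl2 family, had 2049 and 2348 CPM (overexpressing) against 9027 and 7801 CPM (SAHA) (-1.94 ± 0.32), and Astl, the protease of cortical granules that cleaves Zp2 after fertilisation, 266 and 233 CPM (overexpressing) against 811 and 2090.3 CPM (SAHA) (-2.54 ± 0.46, and -1.70 without SAHA library 2).

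The remaining falls among oocyte genes were mostly members of families. They were the homeobox genes Obox1, Obox2 and Obox5, the secreted protein genes Oosp1 and Oosp3, Omt2a and Omt2b, Nlrp9a and Nlrp14, Oog3, Oas1d, Fbxw24, Rfpl4, Spin1 and H1f8. Obox1 had 627 and 1023 CPM in overexpressing oocytes, against 6742 and 4941 CPM in SAHA oocytes (-2.82 ± 0.47 on the log2 scale), and Nlrp9a had 87.8 and 133 CPM (overexpressing) against 1374 and 1301 CPM (SAHA) (-3.60 ± 0.72). Several of these have near-identical copies, so their counts are uncertain, and library totals ended the calls of Obox2, Oosp1, Oosp3, Nlrp14, Oog3, Rfpl4 and H1f8. The transcription factor genes Nobox, Figla and Lhx8 were not called, with log2 fold changes of 0.83, 2.10 and 1.32. Uchl1 was the only member that rose. The number called lower was 0 without overexpressing library 1, 0 without overexpressing library 2, 9 without SAHA library 1 and 7 without SAHA library 2. The summed level of the 10 oocyte markers is largely the same measurement, since Zp1, Zp2, Zp3, Bmp15, Nlrp5 and H1f8 are among both the markers and these falls. The markers Gdf9 and Ooep had the higher level in overexpressing oocytes. Gdf9 had 6090.3 and 8257 CPM in overexpressing oocytes, against 4456 and 4830.1 CPM in SAHA oocytes, and Ooep had 1175 and 1373 CPM in overexpressing oocytes, against 468 and 459 CPM in SAHA oocytes, neither called.

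Of 62 tested genes of the meiotic cell cycle, 15 fell and 2 rose, beside 5.70% and 4.11% of all genes, with a median log2 fold change of -0.90 (-0.12 with library totals, which called 9 lower and 7 higher). Parts of the maturation-promoting factor and its regulators were among the falls. Ccnb1, the cyclin that activates Cdk1 at entry into meiosis, had 725 and 943 CPM in overexpressing oocytes, against 7431 and 7781 CPM in SAHA oocytes (log2 fold change -3.19 ± 0.37 (SE), adjusted p = 0.00353), and Ccnb2 had 115 and 124 CPM (overexpressing) against 575 and 567 CPM (SAHA) (-2.25 ± 0.32). Wee2, the oocyte kinase that holds Cdk1 inactive, had 256 and 309 CPM (overexpressing) against 950.0 and 1138 CPM (SAHA) (-1.89 ± 0.30), and the Cdk1 partners Cks1b and Cks2 fell by 1.96 and 2.39 on the log2 scale. Cdk1 itself was not called (log2 fold change -0.19, adjusted p = 0.909). Mastl and its substrate Arpp19, which restrain phosphatase PP2A, fell by 2.14 and 2.12. Library totals ended the calls of Cks1b, Cks2, Arpp19, Ccna2, Plk4 and Mapk3.

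The 15 falls among these 62 meiotic genes, beside 5.70% of all genes called lower, included 3 checkpoint and anaphase genes. Mad2l1, the spindle checkpoint inhibitor of the anaphase-promoting complex, had 139.6 and 151 CPM in overexpressing oocytes, against 1501 and 1229 CPM in SAHA oocytes (log2 fold change -3.23 ± 0.44 (SE), adjusted p = 0.00481). Pttg1, which encodes securin, had 766 and 902 CPM (overexpressing) against 6308 and 5652 CPM (SAHA) (-2.84 ± 0.46), and Cdc27, a subunit of the anaphase-promoting complex, 79.8 and 83.1 CPM (overexpressing) against 443 and 437 CPM (SAHA) (-2.43 ± 0.51). Cdc20 and Bub1b were not called, with log2 fold changes of -1.19 and -0.34, nor were Espl1, Ttk and Anapc2, with 0.80, 1.62 and 4.50. Bub1, Bub3, Mad1l1, Anapc1, Cdc16, Cdc23 and Fzr1 were not called either. The MAP kinase pathway genes Mapk3 and Map2k1, which act below Mos in metaphase II arrest, fell by 2.05 and 1.78, while Mos was not called (-0.87, adjusted p = 0.128). The 2 that rose were Ccno and Incenp, the scaffold of the chromosomal passenger complex, which had 172 and 167 CPM in overexpressing oocytes, against 20.03 and 15.4 CPM in SAHA oocytes (log2 fold change 3.26 ± 0.59 (SE), adjusted p = 0.0112). Its kinases Aurka, Aurkb and Aurkc were not called, with log2 fold changes of 0.11, -0.54 and -0.97. The number called lower was 0 without overexpressing library 1, 0 without overexpressing library 2, 5 without SAHA library 1 and 3 without SAHA library 2.

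Spindle and cortex genes were called more often lower than higher. Of 37 spindle genes, 8 fell and 3 rose, beside 5.70% and 4.11% of all genes, and their median log2 fold change of -0.19 turned to 0.59 with library totals. Prc1, which bundles microtubules of the central spindle, had 121 and 95.5 CPM in overexpressing oocytes, against 1512 and 1372 CPM in SAHA oocytes (log2 fold change -3.74 ± 0.34 (SE), adjusted p = 0.00291). Kif18a, the kinesin that dampens chromosome movement, had 16.1 and 25.7 CPM (overexpressing) against 382 and 391 CPM (SAHA) (-4.21 ± 0.71), and Tpx2, the activator of Aurora A, 124 and 94.7 CPM (overexpressing) against 599 and 631 CPM (SAHA) (-2.49 ± 0.33). Tubg2 and Nedd1 of the gamma-tubulin ring complex and the kinesins Kif20a, Kif20b and Kif23 completed the falls. Tubb4b, a beta-tubulin, rose, with 872 and 906 CPM (overexpressing) against 67.2 and 68.9 CPM (SAHA) (3.71 ± 0.76), as did the chromosome-bound kinesin Kif22 (2.28 ± 0.58, and 2.89 without SAHA library 1) and the centrosome protein gene Pcnt (1.53 ± 0.40). Of 31 actin and cortex genes, 9 fell and 1 rose, beside the same shares of all genes, with a median of -0.996. Cdc42, a GTPase of cortical polarity, had 107 and 95.7 CPM in overexpressing oocytes, against 543 and 527 CPM in SAHA oocytes (log2 fold change -2.40 ± 0.30 (SE), adjusted p = 0.00402), Capza1, which caps actin filaments, had 7.42 and 7.82 CPM (overexpressing) against 83.9 and 98.7 CPM (SAHA) (-3.58 ± 0.53), and the unconventional myosin gene Myo5b, which rose, had 396 and 357 CPM (overexpressing) against 154 and 165 CPM (SAHA) (1.24 ± 0.31). With library totals, 4 actin and cortex genes were called lower and 2 higher, and Kif23 was not called. Leaving out the filter on low counts ended the Myo5b call. The number of spindle genes called lower was 0 without overexpressing library 1, 1 without overexpressing library 2, 6 without SAHA library 1 and 5 without SAHA library 2, and of actin and cortex genes 0 without overexpressing library 1, 0 without overexpressing library 2, 3 without SAHA library 1 and 2 without SAHA library 2.

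Genes for storing and clearing maternal messenger RNA were called in small numbers, 2 higher and 3 lower of 46, a share near the 9.81% of all genes. Beside Lsm14b, Eif4enif1, which carries the cap-binding protein into silenced particles, rose, with 499.8 and 612 CPM in overexpressing oocytes, against 117 and 255 CPM in SAHA oocytes (log2 fold change 1.58 ± 0.41 (SE), adjusted p = 0.0426). Its log2 fold change was 2.25 without SAHA library 2. Cnot7, a catalytic deadenylase of CCR4-NOT, fell, with 179.9 and 224 CPM (overexpressing) against 2527 and 2673 CPM (SAHA) (log2 fold change -3.69 ± 0.35 (SE), adjusted p = 0.00291), along with its adaptor Btg4 and the polyadenylation factor gene Cpeb4 (-2.28 ± 0.54), whose call ended with library totals. Zar1, another storage factor of the oocyte list, was not called (log2 fold change 0.27).

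Chromatin genes outside the acetylation machinery were called in both directions. Of 22 linker, variant and chaperone histone genes, 6 fell and 1 rose, beside 5.70% and 4.11% of all genes. Slbp, which binds the stem-loop of replication-dependent histone messenger RNAs, had 496 and 431 CPM in overexpressing oocytes, against 6005 and 7848 CPM in SAHA oocytes (log2 fold change -3.90 ± 0.38 (SE), adjusted p = 0.00291). The H3.3 genes H3f3a and H3f3b fell by 1.91 and 2.38 on the log2 scale, and the H3-H4 chaperone genes Asf1a and Asf1b by 2.52 and 2.91. H2ax, the histone variant marked at DNA breaks, rose, with 81.3 and 72.02 CPM (overexpressing) against 7.41 and 6.71 CPM (SAHA) (3.44 ± 0.54). Among 38 DNA and histone methylation genes, 4 rose and 4 fell, beside 4.11% and 5.70% of all genes. Dnmt3a, the de novo DNA methyltransferase of growing oocytes, had 344 and 292 CPM in overexpressing oocytes, against 67.7 and 90.9 CPM in SAHA oocytes (log2 fold change 2.003 ± 0.36 (SE), adjusted p = 0.00953), and Setdb1, a histone H3 lysine 9 methyltransferase, had 152 and 146 CPM (overexpressing) against 31.97 and 27.2 CPM (SAHA) (2.33 ± 0.36). Kmt2b, the main lysine 4 methyltransferase of the mouse oocyte, rose by 2.35 ± 0.35 and its relative Kmt2d changed by -2.28 ± 0.34, so both were called in opposite directions. Kdm5c, a lysine 4 demethylase, rose (2.48 ± 0.42). Kdm1b, the lysine 4 demethylase needed for imprints, had 125 and 143 CPM (overexpressing) against 627 and 682 CPM (SAHA) (-2.29 ± 0.31), Kdm6b, a lysine 27 demethylase, 104 and 75.9 CPM (overexpressing) against 379.9 and 336 CPM (SAHA) (-1.99 ± 0.36), and Zfp57, a protector of imprints, 56.4 and 66.2 CPM (overexpressing) against 454 and 294 CPM (SAHA) (-2.61 ± 0.55). The calls of H3f3a, Asf1a, Kdm6b and Zfp57 ended with library totals.

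Genes that deacetylase inhibitors induce in many cell types were mostly not called. Over the 21 tested, the median log2 fold change was 0.50, beside 0.07 for all genes, with 12 above 0 and 9 below 0. Called members were 2 that fell and none that rose, beside 5.70% of all genes that fell. They were Id2, given above, and Cited2, a CBP-binding cofactor, which had 30.5 and 24.4 CPM in overexpressing oocytes, against 269 and 341 CPM in SAHA oocytes (log2 fold change -3.47 ± 0.51 (SE), adjusted p = 0.00535). Of 13 genes known from zygotic genome activation, 3 fell: Klf17 (450.1 and 331 CPM (overexpressing) against 1754 and 2558 CPM (SAHA), log2 fold change -2.46 ± 0.38), Tcstv1 (58.6 and 58.8 CPM (overexpressing) against 272 and 169 CPM (SAHA), -1.91 ± 0.41) and Eif4e3 (292 and 289 CPM (overexpressing) against 599 and 704 CPM (SAHA), -1.16 ± 0.31). Of 20 imprinted genes, the paternally expressed Mest and Snrpn fell, with 35.5 and 47.4 CPM (overexpressing) against 446 and 603 CPM (SAHA) (-3.66 ± 0.42) and 4.95 and 5.09 CPM (overexpressing) against 52.2 and 53.4 CPM (SAHA) (-3.39 ± 0.65). Of 27 interferon-stimulated and RNA-sensing genes, Trim21 and the RNA-editing enzyme gene Adar rose, and Ifitm3 and Bst2, which encode membrane proteins that restrict viruses, fell. Ifitm3 had 11.5 and 13.6 CPM in overexpressing oocytes, against 176 and 181 CPM in SAHA oocytes (log2 fold change -3.83 ± 0.49 (SE), adjusted p = 0.00412). The other 23 of this list were not called, and 5.70% of all genes were called lower and 4.11% higher. Library totals ended the calls of Tcstv1, Eif4e3 and Bst2, as did leaving out the filter on low counts for Eif4e3 and Bst2.

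Lists of energy metabolism differed in their calls, and some of their medians lay far from the 0.07 of all genes. Shares above those of all genes were reached by the 3 rises of 24 glycolysis and pentose phosphate genes. The 3 falls of 21 citric acid cycle genes also lay above, but fatty acid oxidation and mitochondrially encoded genes did not. Of 73 nuclear genes of oxidative phosphorylation, 4 rose and 6 fell, beside 4.11% and 5.70% of all genes, with a median log2 fold change of 0.97. Ndufa4, of respiratory complex IV, had 31.2 and 29.01 CPM in overexpressing oocytes, against 532 and 406 CPM in SAHA oocytes (log2 fold change -3.96 ± 0.61 (SE), adjusted p = 0.00623), and Uqcrc2 of complex III had 97.1 and 77.7 CPM (overexpressing) against 468 and 408 CPM (SAHA) (-2.33 ± 0.51, a call that library totals ended), while Cox5a of complex IV rose, with 68.9 and 71.02 CPM (overexpressing) against 18.4 and 12.7 CPM (SAHA) (2.17 ± 0.50). None of 13 mitochondrially encoded genes was called by edgeR's test, with 1 at an unadjusted p under 0.05, 2 called lower by DESeq2 and a median of -1.55 with 13 of 13 below 0. That median was -0.46 without SAHA library 1 and -2.22 without SAHA library 2. mt-Cytb had 231 and 228 CPM (overexpressing) against 1820.5 and 728 CPM (SAHA), so the SAHA libraries also differed from each other. Among 24 glycolysis and pentose phosphate genes, the glucose transporter gene Slc2a1 rose, with 81.1 and 76.6 CPM in overexpressing oocytes, against 6.85 and 4.55 CPM in SAHA oocytes (log2 fold change 3.79 ± 0.60 (SE), adjusted p = 0.00647), as did Tkt (4.01 ± 1.04) and Rpia (3.34 ± 0.87, and 4.01 without SAHA library 1) of the pentose phosphate pathway, and Ldhb fell. Of 21 citric acid cycle genes, Mdh1, Idh3a and Suclg2 fell by 2.52, 2.01 and 2.45 on the log2 scale and none rose, although the list's median was 1.44 with 17 of 21 above 0. Of 22 fatty acid oxidation genes, Etfa fell (-2.08 ± 0.32).

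Cholesterol synthesis held the largest fall of a named gene. Of 21 tested genes, 4 fell and none rose, beside 5.70% of all genes that fell, and the median log2 fold change was 0.86, of the opposite sign. Besides Idi1, the sterol oxidase gene Msmo1 had 9.83 and 14.2 CPM in overexpressing oocytes, against 209.9 and 166 CPM in SAHA oocytes (log2 fold change -3.97 ± 0.58 (SE), adjusted p = 0.00535), Sc5d, a sterol desaturase, had 61.4 and 27.9 CPM (overexpressing) against 170.5 and 193 CPM (SAHA) (-2.02 ± 0.50, and -2.67 without overexpressing library 1) and Hsd17b7, a sterol reductase, 38.9 and 31.6 CPM (overexpressing) against 99.1 and 143 CPM (SAHA) (-1.78 ± 0.42). Of 26 nucleotide and serine synthesis genes, Mthfd1 of the folate cycle rose (3.02 ± 0.60, and 3.96 without SAHA library 2), and Rrm2 of ribonucleotide reductase, Ctps and the mitochondrial Mthfd2 fell (-2.64 ± 0.41, -1.51 ± 0.35 and -1.43 ± 0.34). With library totals Sc5d, Hsd17b7, Ctps and Mthfd2 were not called.

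Stress and quality-control lists had calls in both directions, apart from apoptosis regulators, where 4.11% of all genes were called higher and 5.70% lower. The endoplasmic reticulum list had 5 lower calls of 31, above that share, and 1 higher. Of 31 antioxidant genes, Sod1, the cytosolic superoxide dismutase, rose, with 1008 and 1262 CPM in overexpressing oocytes, against 43.7 and 23.8 CPM in SAHA oocytes (log2 fold change 5.07 ± 0.97 (SE), adjusted p = 0.0138). Gsta4, a glutathione transferase for lipid aldehydes, had 183 and 173 CPM (overexpressing) against 14.5 and 11.7 CPM (SAHA) (3.77 ± 0.74), and Prdx1, a peroxide reductase, fell, with 568 and 632 CPM (overexpressing) against 2558 and 2578 CPM (SAHA) (-2.10 ± 0.42). Of 31 endoplasmic reticulum stress and chaperone genes, Atf4, the transcription factor of the integrated stress response, rose, with 358 and 360.2 CPM (overexpressing) against 22.97 and 21.8 CPM (SAHA) (4.003 ± 0.56). In that list Hspa5, P4hb, Pdia3, Pdia6 and Hsp90b1, all chaperones or disulfide isomerases of the endoplasmic reticulum, fell, and Hspa5 had 93.3 and 71.9 CPM (overexpressing) against 311 and 498 CPM (SAHA) (-2.29 ± 0.35). Of 38 p53 and DNA damage genes, Xrcc1 and H2ax rose, and Trp53 and the checkpoint kinase gene Chek1 fell. Chek1 had 171 and 205 CPM in overexpressing oocytes, against 1732 and 1595 CPM in SAHA oocytes (log2 fold change -3.15 ± 0.46 (SE), adjusted p = 0.00535) and Trp53 27.9 and 39.3 CPM (overexpressing) against 121 and 137 CPM (SAHA) (-1.94 ± 0.45). Of 26 apoptosis regulators, Birc3 and Bcl2l10, both inhibitors of cell death, fell and none rose. With library totals P4hb, Pdia3, Pdia6, Hsp90b1 and Trp53 were not called.

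Autophagy and proteasome genes were called in both directions, where 4.11% of all genes were called higher and 5.70% lower. The autophagy calls, 2 higher and 3 lower of 32 tested, were few and are not read as an excess over those shares. The median log2 fold change of that list was 0.04, with 17 genes above 0 and 15 below 0. Of 32 autophagy genes, the lipid transfer protein genes Atg2a and Atg2b rose, by 3.21 ± 0.83 and 2.44 ± 0.59 on the log2 scale, of which Atg2b was not called without the filter on low counts. Becn1, Map1lc3a and the protease gene Atg4a fell, and Atg4a had 2.99 and 3.27 CPM in overexpressing oocytes, against 68.7 and 63.3 CPM in SAHA oocytes (log2 fold change -4.39 ± 0.84 (SE), adjusted p = 0.0167). Of 34 proteasome genes, the regulatory particle genes Psmd4 and Psmd6 rose (1.91 ± 0.50 and 2.61 ± 0.70) and the core particle gene Psmb2 fell (-2.39 ± 0.35). Of 25 genes of calcium signalling at egg activation, 4 rose and 1 fell, beside 4.11% and 5.70% of all genes. Atp2a2, the pump that refills calcium stores, had 290.1 and 258 CPM in overexpressing oocytes, against 72.4 and 62.6 CPM in SAHA oocytes (log2 fold change 2.02 ± 0.31 (SE), adjusted p = 0.00567), Gnaq, a G protein subunit upstream of phospholipase C, 44.96 and 49.7 CPM (overexpressing) against 9.62 and 7.68 CPM (SAHA) (2.45 ± 0.52), and Cacna1h, a T-type calcium channel of the egg, 41.6 and 42.2 CPM (overexpressing) against 2.09 and 2.05 CPM (SAHA) (4.33 ± 1.05). Mtmr4 rose as well (2.34 ± 0.53), and the zinc importer gene Slc39a10 fell (-2.29 ± 0.35).

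Marker lists of other cells had 1 call each at most, where 4.11% of all genes were called higher and 5.70% lower. Cumulus and granulosa markers had 1 lower call of 19 tested, near that share. Theca, stromal and blood cell markers had 1 of 6. Serpine2 of cumulus and granulosa cells fell, at 208 and 213 CPM in overexpressing oocytes, against 1543 and 1662 CPM in SAHA oocytes (log2 fold change -2.93 ± 0.33 (SE), adjusted p = 0.00343). It was above 200 CPM in all 4 libraries, while the 16 markers used for the check of cell types summed to at most 69.6 CPM. Pecam1, an endothelial marker, fell, with 11 and 14.1 CPM (overexpressing) against 55.8 and 95.4 CPM (SAHA) (-2.59 ± 0.70), a call that library totals ended, and none of 10 sperm or early embryo genes was called by edgeR's test, nor any of the 8 that DESeq2 gave an adjusted p, with 1 at an unadjusted p under 0.05.

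**Figure D5:**
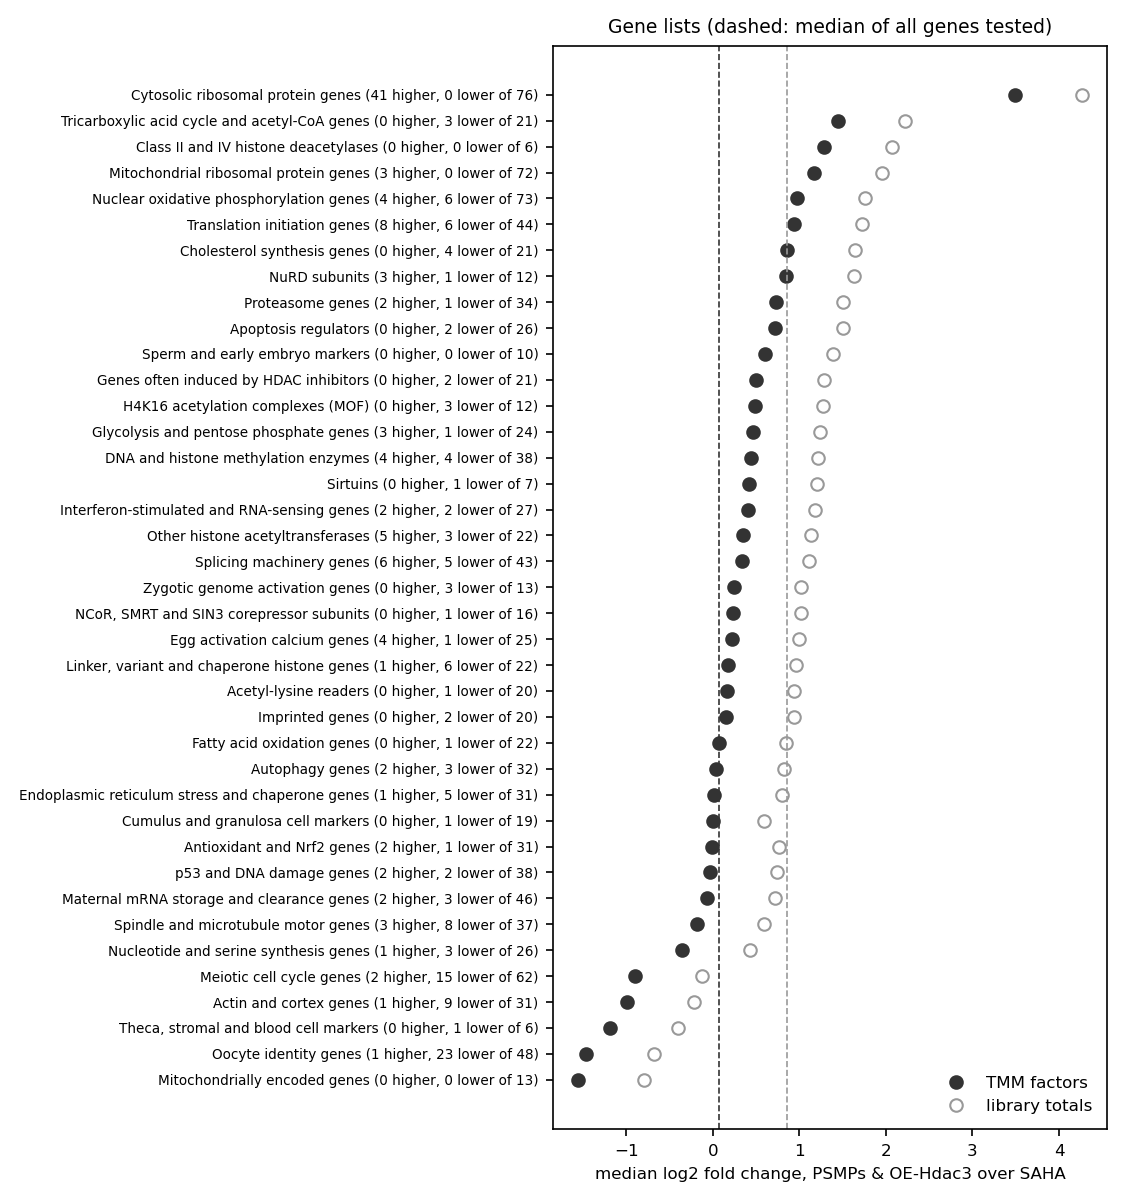
Median log2 fold change of overexpressing over SAHA oocytes for the gene lists with at least 6 tested members, with filled points for TMM factors and open points for library totals, and dashed lines at the median of all genes tested (0.07 and 0.85). Cytosolic ribosomal protein genes lie at 3.49 and oocyte identity genes at -1.46 with TMM factors, and the numbers called stand beside each name.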

How the data were processed

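RNA was measured in pools of 5 mouse oocytes. The deposited values are raw counts per gene, 1 column per library; per the submitters' processing notes the mouse build was mm10 and the tools, in no stated order or role, were deepTools 3.5.1, Bowtie2 2.2.5, featureCounts, HISAT2, DESeq2, Picard, SAMtools and fastp 0.12.4, and strand handling is not given in the sources used here. Counts were used as deposited. Both columns of in vivo PSMPs agreed within sampling noise (chi-square per degree of freedom 0.444) and entered as a single library, their rounded mean, leaving 11 libraries and 5 residual degrees of freedom.

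The filter was filterByExpr of edgeR at a minimum count of 10. Libraries were scaled by TMM, 1 coefficient per group was fitted, and the contrast of PSMPs & OE-Hdac3 minus SAHA was tested by quasi-likelihood F test (edgeR 4.0.16, limma 3.58.1, R 4.3.3), with Benjamini-Hochberg adjustment over 16736 genes and a threshold of 0.05. Each standard error was derived from a gene's F statistic. The biological coefficient of variation was 71.9%. On simulated counts for this contrast over the same genes, the test recovered 14 of 100 genes changed 4-fold and 60 of 100 changed 16-fold, with 2 false calls among 16536 unchanged genes. DESeq2 recovered 17 and 87 of them, with 100 false calls. Only genes above a minimum level were changed. All simulated libraries shared the spread pooled over the groups, although the real groups differed in spread. The recovery therefore does not measure the power of the real comparison. Bounds use a floor of 3 counts over a group and cover counting error only.

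The rule for named genes took the 12 largest rises and 12 largest falls among called genes with at least 10 CPM in the higher group, no overlap and an informative name, the 6 most abundant called genes per direction, and up to 3 members per direction of each of 40 gene lists. Some list members beyond that rule are named to account for a list's calls or to set a partner beside a called gene, chosen after their values were seen. The comparison, lists and motifs were chosen with earlier results of these data known. Alternatives were other filters, scalings, tests (DESeq2 1.42.0) and sets of libraries. Figures were drawn with matplotlib 3.10.9. Some genes are not reported here.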

Additional observations from a re-analysis of the deposited data

How the results depend on the processing

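The number of calls depended strongly on the fit and the scaling. Higher and lower calls numbered 688 and 954 in the fit reported, 1480 and 538 with library totals, 1792 and 2055 with DESeq2's Wald test, 277 and 432 when tested against a log2 fold change of 1, 1323 and 1503 with the in vivo PSMPs columns as 2 libraries, and 4706 and 4576 with only the 4 libraries fitted. With both control groups left out, an alternative chosen after seeing the data, they numbered 4453 and 3868. Leaving out 1 library gave 3 to 61 higher and 1 to 270 lower calls, and Hdac3 log2 fold changes of 4.99 to 5.51. The higher share of calls moved to 73.3% with library totals, beside 41.9% in the fit reported. Minimum count 50, no filter, DESeq2 size factors, mitochondrially encoded genes left out and, chosen after seeing the data, only genes with 10 counts in each of the 4 libraries stayed within 1.5 times. The replicate block gave 468 and 737 calls and an Hdac3 log2 fold change of 5.25; deviations of same-numbered libraries correlated at 0.03, so the numbers were not taken as pairs. None of the 35 named genes or the list examples reversed direction past the threshold in any alternative. Of the 35, the number still called was 0 without overexpressing library 1, 3 without overexpressing library 2, 10 without SAHA library 1 and 9 without SAHA library 2. List medians changed sign with library totals for the spindle, maternal mRNA, nucleotide and serine, antioxidant, p53 and cumulus and granulosa lists. Of 255 called genes that were named or in a list, library totals ended 57 calls and no filter 17. Among the 35 named genes these were Zfp600, H1f8 and Rfpl4 with library totals and Cpsf4l with no filter. The causes were not tested. Depth limits the low genes: folds against a group with few counts are loosely set, and differences there were often not detectable at this depth.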

Other observations

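Gene families outside the lists above, grouped by symbol and chosen after their values were seen, held further calls, where 4.11% of all genes were called higher and 5.70% lower. Of 24 tested Fbxw genes, which encode F-box proteins with WD repeats and include an oocyte-expressed cluster, 7 fell and none rose. Fbxw28 had 694 and 706 CPM in overexpressing oocytes, against 4958 and 4595 CPM in SAHA oocytes (log2 fold change -2.77 ± 0.32 (SE), adjusted p = 0.00353), and Fbxw14 had 519 and 624 CPM (overexpressing) against 5162 and 4558 CPM (SAHA) (-3.09 ± 0.34 on the log2 scale). Members of that cluster are close copies, so reads may be split between them. Of 30 tested Mediator genes, which link transcription factors to RNA polymerase II, 7 fell and 2 rose, with a median log2 fold change of -0.27 (0.51 with library totals). Med31 fell, with 24.4 and 28.1 CPM in overexpressing oocytes, against 228 and 171 CPM in SAHA oocytes (log2 fold change -2.93 ± 0.52 (SE), adjusted p = 0.0102), and Med17, a subunit of the head module, rose, with 489 and 481 CPM (overexpressing) against 74.6 and 51.9 CPM (SAHA) (2.94 ± 0.53).

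Of 20 tested nucleoporin genes with the symbol Nup, 5 fell and 2 rose, where 5.70% of all genes were called lower and 4.11% higher. Nup98, a mobile nucleoporin that also binds chromatin, had 86.4 and 134 CPM in overexpressing oocytes, against 903 and 690.3 CPM in SAHA oocytes (log2 fold change -2.85 ± 0.33 (SE), adjusted p = 0.00353), and Nup50 had 137 and 135 CPM (overexpressing) against 25.7 and 32.2 CPM (SAHA) (2.23 ± 0.34). Of 28 Klhl genes, which encode adaptors of cullin-3 ubiquitin ligases, 6 fell and none rose, and Klhl15 had 11.1 and 11.5 CPM (overexpressing) against 95.1 and 81.6 CPM (SAHA) (-2.97 ± 0.47). Zinc-finger genes with the prefix Zfp were called at 10.1% of 335 tested (13 higher and 21 lower), close to the 9.81% of all genes.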
